A study of Mus musculus with 14 samples.

Results

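The 10 genes examined in whole fetal brains build the transmitters of monoamine neurons or mark these cells: Th, Ddc, Slc18a2, Slc6a3, Nr4a2, Pitx3, Tph2, Slc6a4, Fev and Dbh. They were taken by gene symbol from 2 tables of 41934 genes, where each of the 10 members had a single entry, so that no choice between entries was needed. The brains came from male C57BL/6J fetuses that were either Dio3+/+ or Dio3-/-, littermates from matings of heterozygous mice. Dio3 encodes the type 3 deiodinase, which breaks down thyroid hormones, and the Dio3-/- animals carry point mutations that inactivate the enzyme and leave its mRNA in place. RNA was sequenced from 4 Dio3+/+ and 2 Dio3-/- fetuses at E13.5, and from 3 Dio3+/+ and 5 Dio3-/- fetuses at E18.5, so that the tables rest on 14 libraries.

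The level used here is the authors' mean normalized count, which is the read count of a gene after division by a size factor, averaged by the authors over all libraries of the age. It pools both genotypes, in the proportion 4 to 2 at E13.5 and 3 to 5 at E18.5. It carries no standard error and no value for a single fetus, and the depth of each single library is not analysed here, since the study states only a range of aligned reads for the first batch. The genotypes were therefore not compared here, no difference below was tested against the spread between fetuses, and an age difference cannot be told apart from the change in the share of Dio3-/- brains. In RNA of a whole brain, fewer cells of a type and less RNA per cell cannot be told apart either. The mean of Dio3 itself was 99.0 at E13.5 and 129 at E18.5, and as a pooled mean it does not check the genotype labels.

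Monoamine neurons are few and lie in compact nuclei. Dopamine neurons of the ventral midbrain, serotonin neurons of the hindbrain raphe and noradrenaline neurons of the locus coeruleus are born before or around mid-gestation, and they then send axons through most of the brain. Tyrosine hydroxylase (Th) makes L-DOPA, the common precursor of dopamine and noradrenaline, and tryptophan hydroxylase 2 (Tph2) begins the synthesis of serotonin in neurons. Aromatic amino acid decarboxylase (Ddc) completes dopamine and serotonin, and dopamine beta-hydroxylase (Dbh) turns dopamine into noradrenaline. The vesicular transporter VMAT2 (Slc18a2) loads all of these amines into vesicles, while the plasma membrane transporters DAT (Slc6a3) and SERT (Slc6a4) take dopamine and serotonin back up. Nr4a2 (NURR1) and Pitx3 are transcription factors of midbrain dopamine neurons, and Fev (PET1) is a transcription factor of serotonin neurons.

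All 10 genes had reads at both ages, at levels that spanned a wide range. To compare genes, the mean normalized count was divided by the length of all exons of the gene in kilobases. At E13.5 the order from high to low was Nr4a2, Slc18a2, Th, Ddc, Fev, Slc6a4, Tph2, Pitx3, Dbh and Slc6a3, and the level per kilobase of Nr4a2 was 65.6 times that of Slc6a3. At E18.5 the order was Nr4a2, Slc18a2, Slc6a4, Th, Tph2, Ddc, Slc6a3, Fev, Dbh and Pitx3, and Nr4a2 was 78.1 times Pitx3. Several neighbours lay close together, with ratios of 1.03 for Th over Tph2, 1.02 for Tph2 over Ddc and 1.01 for Fev over Dbh at E18.5, and 1.12 for Th over Ddc at E13.5. With no spread between fetuses available, these neighbours cannot be ranked. Among the 18753 protein-coding genes with reads at E13.5, the members ranged from percentile 25.2 (Slc6a3) to percentile 83.9 (Nr4a2) by level per kilobase. Among the 19278 such genes at E18.5 the range was 24.2 (Pitx3) to 84.4 (Nr4a2).

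**Figure D1:**
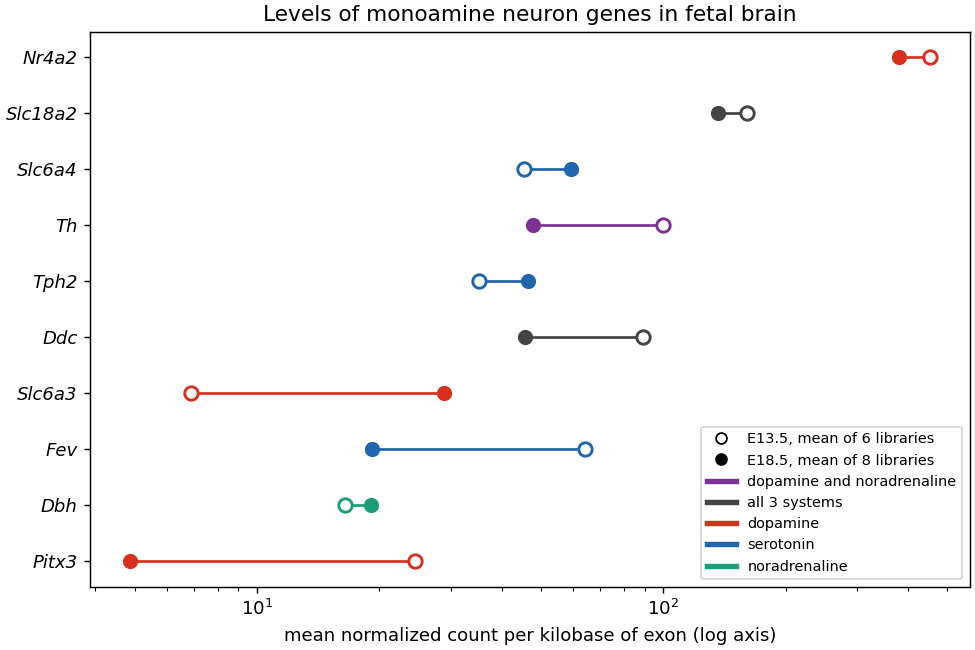
Mean normalized count per kilobase of exon (log axis) of each gene, with open circles for E13.5 (mean of 6 libraries), filled circles for E18.5 (mean of 8 libraries) and a line joining them, coloured by transmitter system. The values are as deposited, with no scaling between the ages and no error bars; Slc6a3 lies at 6.89 and 28.9, while Pitx3 lies at 24.5 and 4.87.

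The ages were set side by side after a common shift was taken off, since each table had been normalized by itself. The median log2 ratio of E18.5 over E13.5 was -0.27 over the 14456 protein-coding genes with a mean of at least 10 at both ages, and age differences below are relative to it. After this centring, 1 of the 10 members (Slc6a3) was at least 2-fold higher at E18.5, and 2 members (Pitx3 and Fev) were at least 2-fold lower. Of 15146 protein-coding genes with a mean of at least 10 at either age, 14.5% were at least 2-fold higher and 6.60% at least 2-fold lower. The remaining 7 members lay between these limits. The median centred log2 ratio of the 10 members was 0.03, beside 0.01 for all 15146 genes, and it turned negative when the tables were not centred (-0.24) or were divided by their sums over protein-coding genes (-0.06).

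None of the 4 enzyme genes passed the 2-fold limit, and their centred log2 ratios ran from -0.79 (Th) to 0.67 (Tph2). Th (ENSMUSG00000000214.11; GRCm38, chromosome 7 from 142892752 to 142931128, minus strand) had a mean normalized count of 236 at E13.5 and 113 at E18.5. Ddc (ENSMUSG00000020182.16; chromosome 11 from 11814101 to 11898144, minus strand) had 397 at E13.5 and 204 at E18.5. The centred log2 ratios were -0.79 for Th and -0.69 for Ddc. Without centring the log2 ratio of Th was -1.06, past the limit. The ratio of Ddc to Th counts stayed close, at 1.68 and 1.81, and this ratio within a table does not depend on the scaling between the ages.

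Tph2 (ENSMUSG00000006764.8; chromosome 10 from 115078641 to 115185022, minus strand) had a mean of 101 at E13.5 and 134 at E18.5, a centred log2 ratio of 0.67. Dbh (ENSMUSG00000000889.8; chromosome 2 from 27165233 to 27183200, plus strand) had means of 44.4 and 51.4, with a centred log2 ratio of 0.48. Both values lie inside the 2-fold limit, and uncentred they were 0.40 for Tph2 and 0.21 for Dbh. Dbh counts were 0.188 of Th counts at E13.5 and 0.455 at E18.5, so that the ratio was 2.42 times higher at the later age.

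The promoters of 4 members are shown because they hold a match near the start to the letters of a known response element. In all, 6 short motifs were searched on both strands of the 250 bases before the start. All 10 members were matched to RefSeq by symbol, with 11 start sites. Each sequence runs 5′ to 3′ on the strand of the gene, and capitals mark the matched letters. Th (GRCm38.p6, chr7:142899996-142900245, minus strand) holds the cAMP response element TGACGTCA, which binds CREB proteins, 37 bases before the start. Ddc (chr11:11898145-11898394, minus strand, the upstream of its 2 start sites) holds AAAGGTCA, the element bound by NR4A2, in reverse and 65 bases before the start. The window of its other start site (chr11:11890409-11890658) holds none of the 6 motifs, and which start was used in these brains was not examined. Tph2 (chr10:115185023-115185272, minus strand) and Fev (chr1:74885409-74885658, minus strand) each hold the GATA factor letters AGATAA, 122 and 112 bases before the start.
Th: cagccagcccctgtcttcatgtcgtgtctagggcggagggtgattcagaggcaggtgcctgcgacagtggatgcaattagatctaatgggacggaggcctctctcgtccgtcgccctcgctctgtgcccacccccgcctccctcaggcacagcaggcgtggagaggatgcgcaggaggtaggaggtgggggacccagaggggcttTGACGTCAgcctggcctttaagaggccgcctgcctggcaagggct
Ddc: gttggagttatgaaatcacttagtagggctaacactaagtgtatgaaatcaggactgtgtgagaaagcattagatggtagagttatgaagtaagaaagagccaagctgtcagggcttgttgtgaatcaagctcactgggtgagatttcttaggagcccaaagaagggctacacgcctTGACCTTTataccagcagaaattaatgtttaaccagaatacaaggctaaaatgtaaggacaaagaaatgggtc
Tph2: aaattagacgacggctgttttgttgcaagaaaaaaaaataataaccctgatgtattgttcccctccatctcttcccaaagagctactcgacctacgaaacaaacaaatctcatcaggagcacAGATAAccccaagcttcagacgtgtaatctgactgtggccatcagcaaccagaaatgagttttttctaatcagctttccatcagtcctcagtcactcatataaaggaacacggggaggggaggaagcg
Fev: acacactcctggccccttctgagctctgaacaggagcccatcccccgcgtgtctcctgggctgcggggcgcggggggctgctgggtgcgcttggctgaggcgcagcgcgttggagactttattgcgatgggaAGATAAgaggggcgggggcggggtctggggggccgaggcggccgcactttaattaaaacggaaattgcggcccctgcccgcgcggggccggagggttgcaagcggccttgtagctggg

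TGACGTCA was present in 1.55% of 32851 promoter windows of this length, AAAGGTCA in 1.34% and AGATAA in 9.99%. Slc18a2 also holds AGATAA, in reverse. AGGTCA, the half-site of thyroid hormone receptors, is part of AAAGGTCA and was found in the same Ddc window and in no other member window, beside 14.0% of all windows. The letters CCGGAA of ETS factors such as Fev (12.0% of all windows) and TAATCC of the Pitx family (6.25%) were in none of the 11 windows. These matches describe letters and show nothing about binding.

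Of the 3 transporter genes, Slc6a3 alone passed the 2-fold limit. Slc6a3 (ENSMUSG00000021609.6; chromosome 13 from 73536747 to 73578672, plus strand) had a mean of 23.8 at E13.5 and 99.96 at E18.5, which after centring is 5.07-fold higher at E18.5 (log2 2.34). It was the lowest of the 10 genes per kilobase at E13.5 and the seventh at E18.5. Slc6a4 (ENSMUSG00000020838.12; chromosome 11 from 76998603 to 77032340, plus strand) had 206 and 268, a centred log2 ratio of 0.65. Slc18a2 (ENSMUSG00000025094.8; chromosome 19 from 59260896 to 59296012, plus strand) had 839 and 710, and its centred log2 ratio was 0.03. The sign for Slc18a2 changed with the scaling, since its uncentred log2 ratio was -0.24. Exons of Slc18a2 overlap those of the minus-strand gene Gm29261 over 2.12% of their length, and reads were counted on either strand.

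For Slc6a3 and Th, both genes of dopamine neurons, the centred log2 ratios were 2.34 and -0.79, the latter inside the 2-fold limit. Slc6a3 counts were 0.101 of Th counts at E13.5 and 0.885 at E18.5, so that the ratio was 8.76 times higher at the later age. Slc18a2 counts were 3.56 times those of Th at E13.5 and 6.28 times at E18.5. In contrast, the ratio of the serotonin transporter to the serotonin enzyme, Slc6a4 over Tph2, was 2.04 at E13.5 and 2.00 at E18.5. Slc6a4 counts exceeded those of Slc6a3 8.67 times at E13.5 and 2.68 times at E18.5. As background, Th is also made by neurons of the hypothalamus and olfactory bulb, and Slc6a4 and Slc18a2 are made for a time in thalamic neurons that do not synthesize serotonin. The pooled RNA does not separate these sources.

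**Figure D2:**
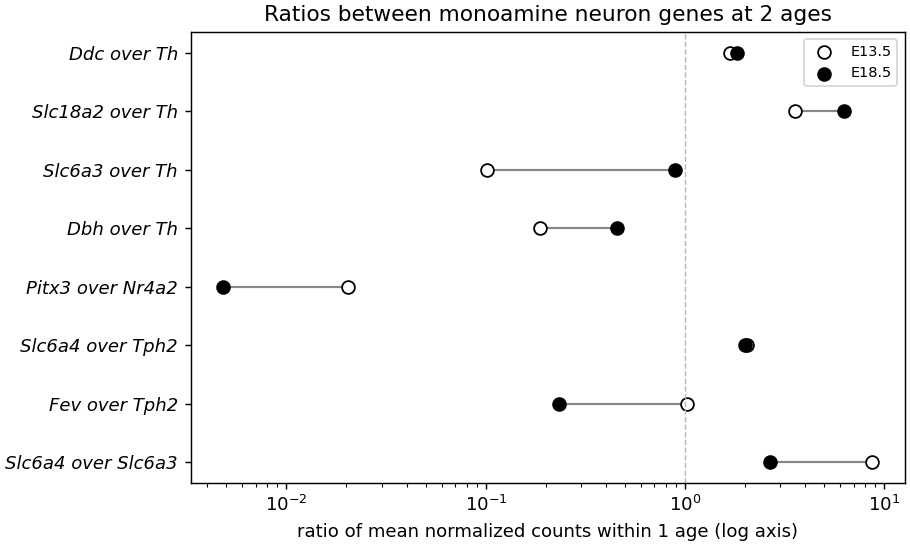
Ratio of the mean normalized counts of paired genes within 1 age (log axis), with open circles for E13.5 and filled circles for E18.5. A ratio within an age is unaffected by scaling between the ages; Slc6a3 over Th lies at 0.101 and 0.885, Fev over Tph2 at 1.02 and 0.232, and Slc6a4 over Tph2 at 2.04 and 2.00.

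Of the 3 transcription factor genes, Pitx3 and Fev passed the 2-fold limit, both toward lower levels at E18.5, and Nr4a2 did not. Pitx3 (ENSMUSG00000025229.15; chromosome 19 from 46135685 to 46148326, minus strand) had a mean of 37.5 at E13.5 and 7.43 at E18.5, 4.18-fold lower after centring (log2 -2.06). The E18.5 value rests on few reads, about 59.5 normalized counts when multiplied over all 8 libraries. Pitx3 exons overlap those of the plus-strand gene Elovl3 over 0.66% of their length. Fev (ENSMUSG00000055197.4; chromosome 1 from 74881509 to 74885419, minus strand) had 104 at E13.5 and 31.1 at E18.5, 2.76-fold lower after centring (log2 -1.47). Both stayed past the 2-fold limit at each scaling tried, with lowest and highest log2 values of -2.33 and -1.92 for Pitx3 and of -1.74 and -1.43 for Fev.

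Nr4a2 (ENSMUSG00000026826.13; chromosome 2 from 57106830 to 57124003, minus strand) had the highest level of the 10 genes at both ages, with means of 1835 and 1545. Its centred log2 ratio was 0.02, and its sign changed with the scaling. As background, NR4A2 is also made by many neurons outside the midbrain, such as those of the cortical subplate and claustrum. Pitx3 counts were 0.0204 of Nr4a2 counts at E13.5 and 0.00481 at E18.5. For Fev and Tph2, both genes of serotonin neurons, the ratio of counts was 1.02 at E13.5 and 0.232 at E18.5, which is 4.41 times higher at the earlier age.

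Genes that specify or accompany the 3 neuron types were examined as further lists, counted by the same 2-fold limit among genes with a mean of at least 10 at either age. A gene under 10 at 1 age thus enters only through the age where it is higher, which favours a call in that direction. The same holds for the shares of all protein-coding genes, 14.5% at least 2-fold higher and 6.60% at least 2-fold lower. Values in parentheses below are centred log2 ratios, and the highest level in a list is the greater of the levels per kilobase at the 2 ages. Of 12 genes of dopamine neuron specification and identity, 8 were at least 2-fold lower at E18.5 and 1 was higher, with a median centred log2 ratio of -1.69. Foxa2, a factor of the floor plate, had the lowest ratio, with means of 270 and 38.6 (log2 -2.53). En2, the midbrain-hindbrain engrailed factor with the highest level per kilobase in the list, had 2367 and 511 (-1.94). Dlk1, a transmembrane protein and not a transcription factor, was among the lower genes, with 859 and 131 (-2.44). The single higher gene was Aldh1a1, a retinaldehyde dehydrogenase that marks ventral midbrain dopamine neurons and is made by other cells too, with means of 10.2 and 219 (4.70). Of the 7 genes of serotonin neuron specification, 5 were at least 2-fold lower and none was higher (median -1.95), from Foxa2 up to Nkx2-2, a factor of the ventral hindbrain, with 391 and 211 (-0.62).

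Of the 7 genes of noradrenaline neurons, 5 were at least 2-fold lower and 1 was higher (median -1.74). The higher gene was Pnmt, the enzyme that makes adrenaline, with low means of 5.23 and 11.1 (1.35). Some genes are on more than 1 list. The centred log2 ratio of Fev (-1.47) lay within the range of the serotonin list, from -2.53 (Foxa2) to -0.62 (Nkx2-2). That of Pitx3 (-2.06) lay within the wider range of the dopamine list, from -2.53 (Foxa2) to 4.70 (Aldh1a1). This wider range holds every member, from Pitx3 to Slc6a3 (2.34), so that it does not liken Pitx3 to the list.

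The pterin cofactor that TH and TPH2 require is made and recycled by a further set of enzymes. None of these 7 genes passed the 2-fold limit, and their median was 0.08, with -0.19 uncentred. Qdpr, which recycles the cofactor, had the highest level, with means of 477 and 419 (0.08). Pcbd1, a dehydratase of the same cycle, had 158 and 206 (0.65), and Gchfr, which regulates the first enzyme of the pathway, had 18.9 and 10.8 (-0.54). Of 9 genes of monoamine breakdown, other carriers and peripheral synthesis, 4 were at least 2-fold higher and none lower (median 0.78). With no centring 2 were higher and 1 was lower. Tph1, the tryptophan hydroxylase of pineal and peripheral cells, had the highest ratio, with means of 8.65 and 36.5 (2.35). Slc18a1, the vesicular transporter VMAT1, had the lowest, with 17.8 and 8.20 (-0.85), and the carrier Slc29a4 had the highest level, with 2070 and 2283 (0.41).

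The receptor genes for these transmitters were mostly higher at E18.5. Of all protein-coding genes with a mean of at least 10 at either age, 14.5% were at least 2-fold higher. Among 4 dopamine receptor genes with enough reads, 3 were at least 2-fold higher and none lower (median 2.43). Drd2 had the highest level per kilobase, with means of 104 and 344 (1.99), Drd5 the highest ratio, with 2.51 and 17.0 (3.03), and Drd4 the lowest, with 14.4 and 13.3 (0.15). Among 13 serotonin receptor genes 12 were at least 2-fold higher and none lower (median 2.40). Htr1b had the highest level there, with 123 and 648 (2.67). Htr1f had the highest ratio, with 3.44 and 37.7 (3.73), and Htr2b was the exception, with 45.7 and 30.3 (-0.32). Of 9 adrenergic receptor genes 5 were at least 2-fold higher and none lower (median 1.64), from Adra1a with 379 and 374 (0.25) to Adrb1 with 31.6 and 161 (2.62). Adra2a had the highest level, with 637 and 812 (0.62). Counts of the 3 receptor lists did not change with the scaling. Drd5, Htr1d, Htr1f, Htr5b, Adra1d and Adrb3 had means under 10 at E13.5 and were counted only through their E18.5 means. All of them were among the genes counted as higher.

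**Figure D3:**
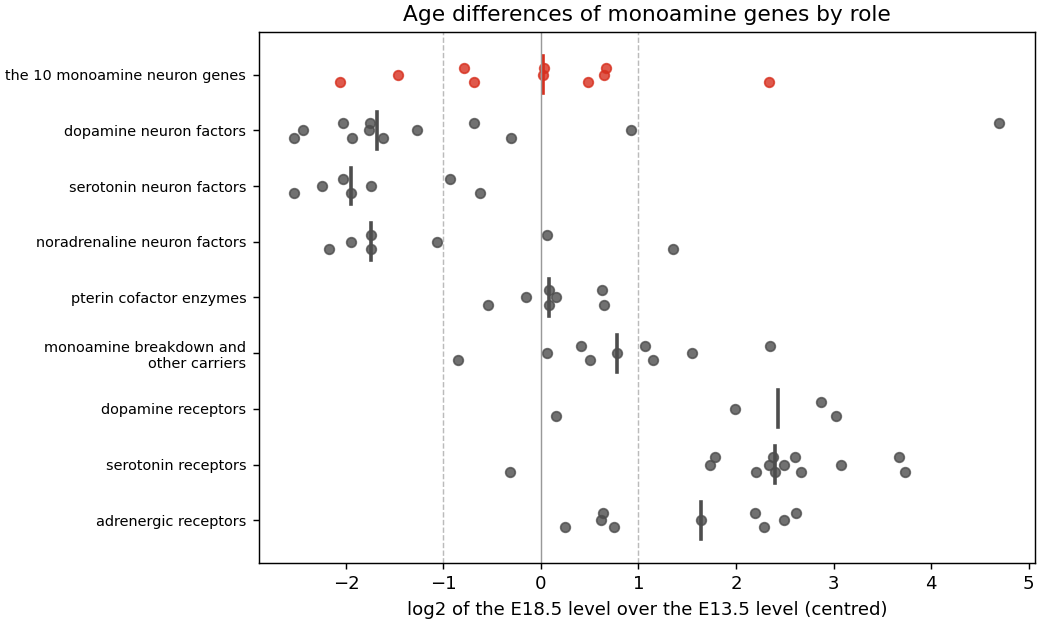
Centred log2 ratio of the E18.5 level over the E13.5 level, 1 point per gene, for the 10 monoamine neuron genes (red) and for 8 lists of related genes (grey); bars are medians and dashed lines mark 2-fold. Specification genes of all 3 systems have medians from -1.95 to -1.69, the cofactor enzymes 0.08 and the receptors 1.64 to 2.43.

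Markers of the whole tissue and of other cells were read for the same libraries. Their counts stand beside 14.5% of all protein-coding genes at least 2-fold higher and 6.60% at least 2-fold lower. All 6 neuron markers and all 4 progenitor markers had reads, and the former had summed means of 120532 at E13.5 and 140752 at E18.5, the latter 20912 and 5917. The median centred log2 ratio was 0.96 for neurons, with 3 genes at least 2-fold higher, and -1.14 for progenitors, with 2 genes at least 2-fold lower. Among 7 markers of sympathetic and adrenal medulla cells, which also make TH and DBH, 5 had enough reads, 2 were at least 2-fold higher and none lower, and the summed means were 3209 and 4819. Their means at the 2 ages were 1052 and 1720 for Chga, 1451 and 1949 for Chgb, 268 and 951 for Npy, 431 and 187 for Prph, 5.23 and 11.1 for Pnmt, 2.84 and 0.788 for Hand2 and 0.347 and 0.506 for Hand1. Most of both sums came from Chga, Chgb and Npy, while Hand2 and Hand1 had too few reads to be counted. Whether sympathetic or adrenal medulla cells were present was not tested. Among 5 markers of platelets and mast cells, which hold monoamines, 4 had enough reads, and 1 was higher and 1 lower, with summed means of 2812 and 2821. The means were 2675 and 2746 for Kit, 77.1 and 57.1 for Pf4, 54.5 and 5.12 for Ppbp, 5.12 and 12.4 for Cpa3, and 0 and 0.948 for Mcpt4. Kit made up most of both sums, so that their closeness says little about the other markers. The higher gene was Cpa3 and the lower gene Ppbp. Lower at E18.5 by at least 2-fold were 4 of 6 red cell markers and 4 of 5 cartilage markers. Among 6 skeletal muscle markers 2 were lower, Myh3 with 132 and 19.6 and Myog with 10.7 and 1.15. Acta1 (48.7 and 109) and Tnnt3 (7.16 and 14.9) were higher. Among 4 pineal and retina markers 2 had enough reads and were lower. These were Otx2 (2040 and 549), which is also on the dopamine neuron list, and Rax (30.0 and 3.31). Crx (8.38 and 6.33) and Aanat (5.80 and 4.50) had too few reads to be counted, with centred log2 ratios of -0.13 and -0.10. Of 5 pituitary markers 2 had enough reads, Pomc with 64.8 and 119 and Gh, which was listed at 0 at E13.5 and at 963 at E18.5. The part of these cells in the values of the 10 members was not tested.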

How the data were processed

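Whole brains of 14 male fetuses were sequenced in 2 batches with different ribosomal depletion and library kits. The authors trimmed the reads (cutadapt 3.1), aligned them to GRCm38 with STAR 2.5.3a on GENCODE VM22, removed rRNA and tRNA, counted them per gene with HTSeq (union mode, both strands together), applied ComBat-seq to remove the difference between the batches and ran DESeq2 1.30.1 within each age. The batch adjustment can move any level, and its effect cannot be seen in the adjusted tables. The deposited signal used here is the authors' mean normalized count over all libraries of an age, in 2 tables of 41934 genes. The other 6 columns of results in each table hold the authors' own comparison of the genotypes (log2 fold change, its standard error, statistic, p-value, adjusted p-value and a mark of significance) and were not used.

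Python 3.11.15 with pandas 2.3.3 and numpy 2.4.6 was used. Levels per kilobase used the union of exons in GENCODE M21, also on GRCm38, which is 1 release older; 41897 genes matched by identifier and 37 did not. The log2 ratio of the ages was centred on the median of protein-coding genes with a mean of at least 10 at both ages. The code for the centring was tested on simulated means with a known shift, which does not show which scaling suits these data. Promoter sequences were taken from RefSeq on GRCm38.p6. Members, lists, motifs and limits were chosen with earlier results of these data known. Named from each list of related genes were the genes with the highest ratio, the lowest ratio and the highest level. Dlk1 was named besides, outside this rule. A few of the genes so chosen are left out of the text. A genotype test planned for values per library was not run. The tables hold no depth of single libraries, for which the study gives a range in its first batch only.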

Additional observations from a re-analysis of the deposited data

How the results depend on the processing

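The count of members at least 2-fold higher at E18.5 was 1 under the 6 alternatives of scaling, pseudocount and shared symbols, and the count of lower members was 2 or, without centring, 3, when Th (-1.06) joined Pitx3 and Fev. With a fold of 1.5 the counts were 3 higher and 4 lower, beside 23.3% and 14.8% of all genes. The median over the members turned from 0.03 to -0.24 without centring and to -0.06 when the tables were divided by their sums over protein-coding genes. Slc18a2 and Nr4a2 changed sign in these 2 settings, and the other 8 members kept theirs in all 6. Nr4a2 remained the highest member, and Slc6a3 (E13.5) and Pitx3 (E18.5) the lowest, when the length was that of the longest transcript or of the coding part, while neighbours in the order changed places, and Ddc passed Th and Slc18a2 at E13.5 with the longest transcript.

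No paired analysis was possible because the columns hold means over all libraries of an age. No fetus was left out in turn and the planned genotype fits were not run, as both need values per library. The tables hold no depth of single libraries, and no interval is given for the low levels of Pitx3, Slc6a3 and Dbh.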
